A study of Mus musculus with 6 samples.

Results

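LRP1 (low density lipoprotein receptor-related protein 1) and 7 related genes were followed in liver sinusoidal endothelial cells (LSECs) from fibrotic mouse liver. Besides Lrp1 the set held the receptor genes Vldlr, Lrp4, Lrp8, Lrp10, Lrp12 and Sorl1, and Lrpap1, which encodes the chaperone of these receptors. The 8 genes were taken by symbol from the 34745 genes of the deposited table. They were selected on the contrast between the genotypes described here, so their values in it are a description and not an independent test.

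The series held 6 mRNA libraries, 3 from LSECs of Tgfbr2f/f mice (f/f) and 3 from LSECs of mice labelled Tgfbr2 ECKO, an endothelial knockout of the type II TGF-beta receptor. Every mouse had been injected into the peritoneum with CCl4, a hepatotoxin that produces fibrosis, 2 times per week over 6 weeks. No library came from uninjected mice. Age, sex, strain, the promoter that drove deletion, the deleted exons and the way the LSECs were isolated are not stated in the labels. Separate mice are not stated for the 3 libraries of a genotype either, so p-values measure the spread between libraries, which may be technical.

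Receptors of the LDL receptor family carry clusters of cysteine-rich ligand-binding repeats outside the cell and a short tail inside it that recruits endocytic adaptors. They take up lipoproteins, proteases bound to their inhibitors, and matrix proteins, and some of them also transmit signals. In liver, LRP1 is known from hepatocytes, where it clears lipoprotein remnants, and from macrophages, stellate cells and fibroblasts. LRP5 and LRP6, relatives outside the set, are Wnt co-receptors.

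Library totals ran from 17171850 to 25062755 counts. Mitochondrial transcripts took 11.5% to 23.5% of counts in f/f and 19.7% to 32.4% in ECKO, and f/f replicate 1 had the 23.5%. Tgfbr2 stood at 427 ± 35.1 CPM (counts scaled to library size by TMM, mean ± SD, n = 3) in f/f and 499 ± 12.1 CPM (n = 3) in the libraries labelled ECKO. Its log2 fold change was 0.22 (SE 0.10, edgeR adjusted p = 0.228) and -0.025 when scaled by the total count, so the count does not check the deletion, and ECKO below means the libraries so labelled. The 14 sinusoidal markers, among them Stab1, Stab2 and Lyve1, summed to 23980 to 27846 CPM in f/f and 25455 to 30750 CPM in ECKO, and none was at 0 in any library. Of these, Pecam1 and Clec1b were called higher in ECKO (log2 fold change 0.51 and 0.60, edgeR adjusted p = 0.0456 and 0.0414), 12 did not pass, and 5 had all ECKO libraries above all f/f libraries. Over all genes tested, 1.24% were called higher and 15.7% had that order of libraries. Summed stellate cell and fibroblast markers (19 genes) were lower in ECKO, at 1206 to 1782 CPM against 2382 to 3782 CPM. Summed hepatocyte markers (15 genes) overlapped, at 1249 to 2209 CPM in f/f and 1290 to 2474 CPM in ECKO. Alb was the largest part of that sum, at 832 ± 242 and 785 ± 324 CPM (n = 3 each). The median log2 fold change of the 15 was 0.46, and 0 passed with edgeR. Of the 15, 2 (Apoa1 and Hnf4a) had all ECKO libraries above all f/f libraries, and DESeq2 called 2.

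Lrp1 fell to 38.6% of its f/f level in ECKO and was the only member to pass the threshold of 0.05 on the adjusted p. Vldlr and Sorl1 had ECKO libraries below all f/f libraries but missed it, Lrp4, Lrp10 and Lrp12 overlapped between the genotypes, and Lrpap1 lay slightly above, though not under total count scaling. Of all genes tested, 15.2% had all ECKO libraries below all f/f libraries and 15.7% had them above. Lrp8 was too low to be tested. Across the 13692 genes tested, 2.79% were called lower in ECKO and 1.24% higher. Of the 8 members, 7 were among the genes tested. The median log2 fold change of those 7 was -0.19, against 0.01 over all genes tested. Of all genes tested, 3214 had an unadjusted p under 0.05 with edgeR, and DESeq2 called 1508. Because the contrast helped choose the members, nothing is read from the 1 of 7.

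Lrp1 (ENSMUSG00000040249, chromosome 10, 127538161 to 127621148, minus strand, mm10/GRCm38) encodes a large endocytic receptor. The longest coding transcript annotated for it has 89 exons and 14.9 kb. In f/f it reached 113, 131 and 127 CPM (2704, 2668 and 3076 counts). In ECKO it reached 48.3, 41.4 and 53.8 CPM (725, 713 and 938 counts). The highest ECKO library was thus far below the lowest f/f library, which was f/f replicate 1. Group means were 124 ± 9.52 CPM and 47.8 ± 6.19 CPM (SD, n = 3 each). The log2 fold change was -1.37 (SE 0.12, 95% interval -1.66 to -1.09, edgeR adjusted p = 0.00853). Groups that do not overlap in this direction were found for 15.2% of all tested genes. Lrp1 passed the threshold without each library in turn, with a log2 fold change of -1.46 to -1.27 and an adjusted p of 0.00384 to 0.0443. It passed in all 15 alternatives that were run. The antisense gene Gm16217 lies within the Lrp1 locus, shares no exonic base with it and had 0 counts in every library.

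**Figure D1:**
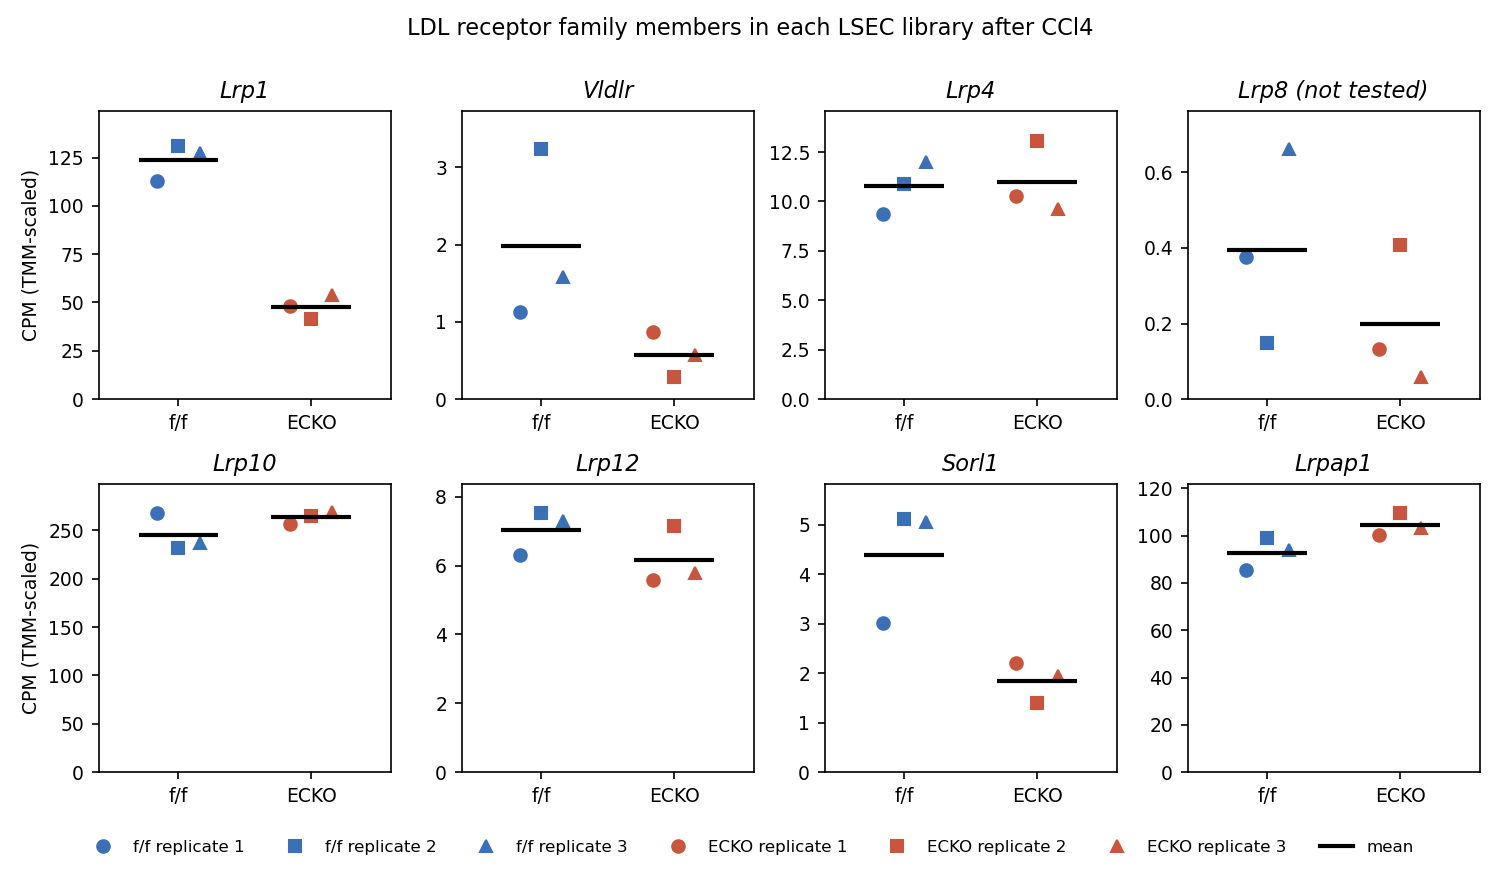
TMM-scaled CPM of the 8 members in each library, on linear axes that start at 0, with f/f in blue, ECKO in red, a symbol for each replicate and a bar for the group mean. Lrp1 lies between 113 and 131 CPM in f/f and between 41.4 and 53.8 CPM in ECKO, whereas Lrp4, Lrp8, Lrp10 and Lrp12 overlap.

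Lrp1 was set against the markers of other cells in the same libraries, since stellate cells and macrophages carry it too. It equalled 4.75%, 3.69% and 3.37% of the summed stellate cell and fibroblast markers in f/f, and 2.97%, 3.43% and 3.02% in ECKO. On that scale the groups overlapped, with ECKO replicate 2 above f/f replicate 3. The genes of that sum moved unequally. Col1a1, Col1a2 and Col3a1 had log2 fold changes of -3.28, -2.70 and -2.64, and Dcn and Colec11 of -1.03 and -0.70. Ecm1, Vipr1 and Hgf overlapped between the groups, at 0.23, 0.03 and 0.12. The ratio therefore depends on which markers are summed. Against the summed sinusoidal markers Lrp1 was at 0.406% to 0.547% in f/f and 0.163% to 0.175% in ECKO, with no overlap. The test called 9 of the 19 stellate cell and fibroblast markers lower and 0 higher (median log2 fold change -1.01). DESeq2 called 14, and 13 had all ECKO libraries below all f/f libraries. Of all 13692 genes tested, edgeR called 2.79% lower, 15.2% had that order of libraries and 15.7% the reverse. An unadjusted p under 0.05 was found for 3214 of these, and DESeq2 called 1508. The part of the stellate cell and fibroblast markers in the Lrp1 result was not tested. In bulk libraries, fewer cells of a type and less RNA per cell cannot be told apart. Kupffer cell and macrophage markers (12 genes) summed to 58.2 to 117 CPM in f/f and 71.4 to 99.1 CPM in ECKO. With edgeR 0 of 11 tested passed, with 4 at an unadjusted p under 0.05 and 2 called by DESeq2. The genes differed in direction. Clec4f and Folr2 had all ECKO libraries above f/f (log2 fold change 1.26 and 1.13), and Cd68 and Marco all below (-1.09 and -0.87). Lrp1 alone was at 112% to 194% of the Kupffer cell and macrophage sum in f/f and 53.6% to 58.0% in ECKO, with no overlap. Against the summed hepatocyte markers it was 5.12% to 10.5% in f/f and 1.67% to 4.17% in ECKO, again with no overlap.

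Vldlr (ENSMUSG00000024924, chromosome 19, 27216484 to 27254231, plus strand) encodes a receptor that binds apolipoprotein E and reelin. It was scarce, at 1.13, 3.24 and 1.57 CPM in f/f (27, 66 and 38 counts) and 0.865, 0.291 and 0.573 CPM in ECKO (13, 5 and 10 counts). All ECKO libraries lay below all f/f libraries, an order that 15.2% of tested genes showed. The f/f values themselves ranged widely, and f/f replicate 2 stood highest. The log2 fold change was -1.78 (SE 0.55, 95% interval -3.06 to -0.50, edgeR adjusted p = 0.112). The difference therefore missed the threshold, and without f/f replicate 2 it shrank to -1.24 (adjusted p = 0.244).

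Sorl1 (ENSMUSG00000049313, chromosome 9, 41964720 to 42124297, minus strand) encodes a sorting receptor that joins LDL receptor repeats to a sortilin-type domain and moves cargo between the Golgi and endosomes. It stood at 3.01, 5.11 and 5.05 CPM in f/f (72, 104 and 122 counts). In ECKO it stood at 2.20, 1.39 and 1.95 CPM (33, 24 and 34 counts). The groups did not overlap, as for 15.2% of tested genes in this direction, and f/f replicate 1 was the f/f library nearest to ECKO. The log2 fold change was -1.25 (SE 0.31, 95% interval -1.97 to -0.53, edgeR adjusted p = 0.0678). Without f/f replicate 1 it was -1.45 and passed (adjusted p = 0.0255). In that fit 5.47% of all genes were called lower.

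The call on Sorl1 and Vldlr depended on the test and the scaling. DESeq2, which called 7.58% of genes lower, gave adjusted p = 0.00826 for Sorl1 and 0.0385 for Vldlr. Scaling by the total count alone, which moved the median log2 fold change of all genes to -0.22 and called 8.83% of genes lower, gave 0.0252 and 0.0364. The other alternatives, apart from the fit for Sorl1 without f/f replicate 1, left both above the threshold wherever they could be tested.

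**Figure D2:**
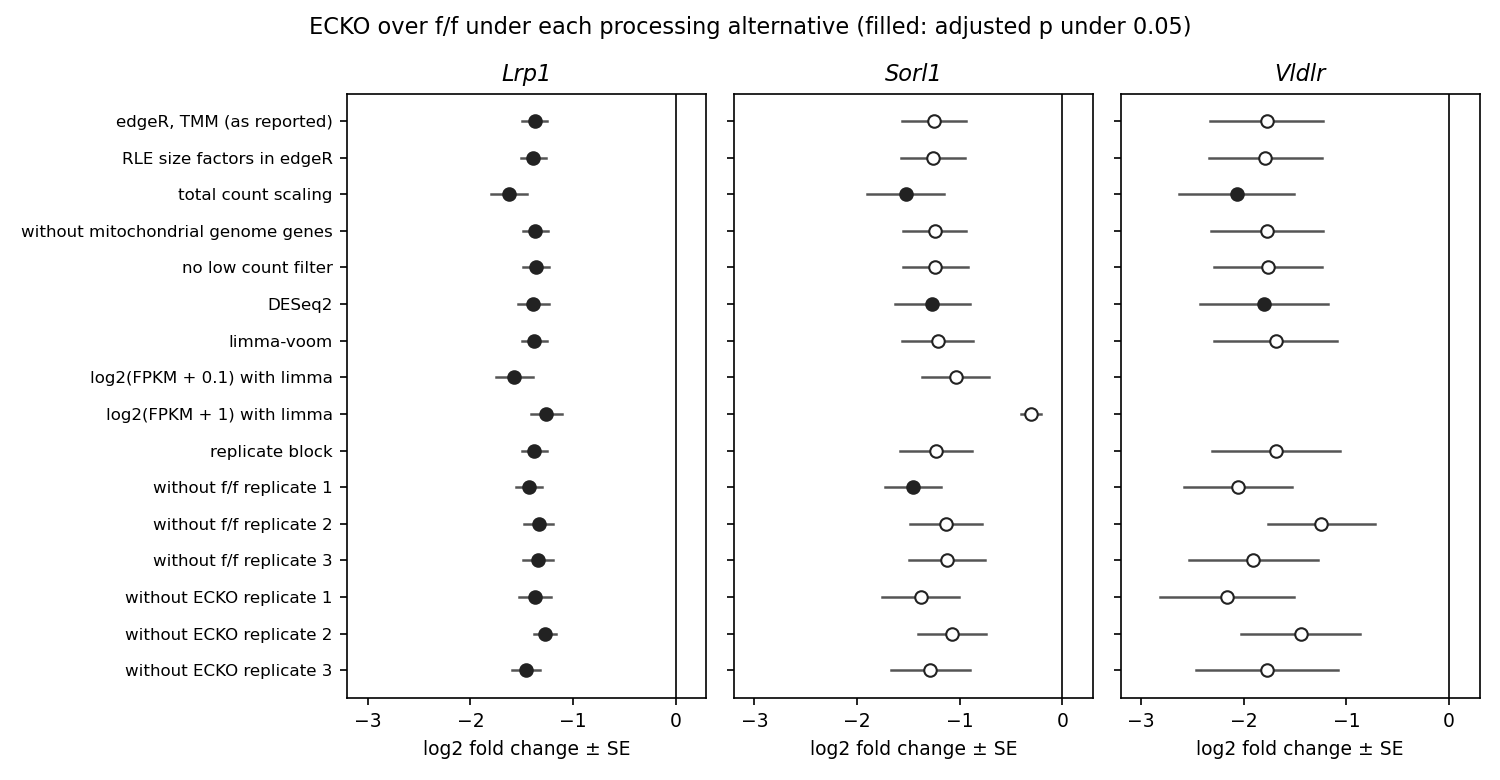
Log2 fold change of ECKO over f/f with its SE for Lrp1, Sorl1 and Vldlr under the reported fit and each alternative, with filled points where the adjusted p was under 0.05. Lrp1 is filled throughout at -1.62 to -1.26, Sorl1 is filled in 3 of 15 alternatives and Vldlr in 2 of the 13 that kept it.

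The promoters of these 3 genes are shown because they are the members whose ECKO libraries all lay below the f/f libraries. That order was found for 15.2% of all tested genes. Each run is the 250 bases before the most upstream start listed by RefSeq (GRCm38.p6), 5′ to 3′ on the gene's own strand. Of the 8 members, 6 had a promoter in that reference. Capitals mark matches, on either strand, to the GC box GGGCGG bound by SP1-type factors and to the SMAD box CAGAC, which do not overlap each other here.
Lrp1 (chr10:127621149-127621398, minus strand): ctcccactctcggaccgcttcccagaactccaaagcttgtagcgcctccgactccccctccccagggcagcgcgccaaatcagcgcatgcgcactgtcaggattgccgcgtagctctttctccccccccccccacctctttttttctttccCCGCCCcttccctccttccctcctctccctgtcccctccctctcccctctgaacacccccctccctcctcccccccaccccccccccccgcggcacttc
Sorl1 (chr9:42124298-42124547, minus strand): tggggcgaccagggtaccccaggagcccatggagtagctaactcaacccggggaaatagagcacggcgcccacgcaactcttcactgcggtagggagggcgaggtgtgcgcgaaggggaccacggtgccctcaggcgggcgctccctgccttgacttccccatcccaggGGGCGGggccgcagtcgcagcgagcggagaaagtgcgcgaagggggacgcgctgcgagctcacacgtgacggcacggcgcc
Vldlr (chr19:27216234-27216483, plus strand): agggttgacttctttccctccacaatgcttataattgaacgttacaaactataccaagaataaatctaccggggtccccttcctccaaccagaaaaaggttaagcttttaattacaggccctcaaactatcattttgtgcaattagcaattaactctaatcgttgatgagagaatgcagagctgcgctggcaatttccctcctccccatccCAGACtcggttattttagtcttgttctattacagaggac

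The Lrp1 stretch held 1 GC box, on the reverse strand with its first base 99 bases before the start, and no SMAD box. Its G and C content was 67.2%, against a median of 52.4% over 32851 promoter stretches of the same length. Sorl1 likewise held 1 GC box, 81 bases before the start, and no SMAD box, at 69.6% G and C. Vldlr held no GC box and 1 SMAD box, 39 bases before the start, at 41.6% G and C. Among all promoter stretches 32.7% held a GC box and 42.2% a SMAD box, so neither match is rare. Lrp8, Lrp10 and Lrpap1, whose ECKO libraries did not all lie below f/f, each held 1 SMAD box too, and Lrpap1 held 5 GC boxes. Of the members only Lrp1 passed the threshold, and Lrp8 was not tested. These are matches of letters only, and binding was not measured.

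Lrp4 and Lrp8 belong to the members known for signalling. Lrp4 (ENSMUSG00000027253, chromosome 2) is the agrin receptor of the neuromuscular junction. It stood at 9.37, 10.9 and 12.0 CPM in f/f and 10.3, 13.1 and 9.63 CPM in ECKO, with full overlap. Its log2 fold change was 0.03 (95% interval -0.37 to 0.44, edgeR adjusted p = 0.930), so differences beyond 0.44 in either direction lay outside the interval. Lrp8 (ENSMUSG00000028613, chromosome 4) encodes the apolipoprotein E receptor 2, which pairs with VLDLR in reelin signalling. It had 9, 3 and 16 counts in f/f and 2, 7 and 1 in ECKO, and the filter on low counts removed it. Fitted without that filter its log2 fold change was -0.97 (SE 0.85, edgeR adjusted p = 0.580), and no difference was detectable at this depth.

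Lrp10 and Lrp12 are more distant relatives with fewer ligand-binding repeats, and Lrp10 cycles between the Golgi and endosomes. Lrp10 (ENSMUSG00000022175, chromosome 14) was the most abundant member. It stood at 268, 232 and 237 CPM in f/f and 257, 265 and 269 CPM in ECKO. The ECKO values lay within or just above the f/f range, and the log2 fold change was 0.10 (95% interval -0.12 to 0.33, edgeR adjusted p = 0.557). Lrp12 (ENSMUSG00000022305, chromosome 15) stood at 6.31, 7.52 and 7.29 CPM in f/f and 5.59, 7.15 and 5.79 CPM in ECKO. Its log2 fold change was -0.19 (95% interval -0.61 to 0.23, edgeR adjusted p = 0.562). A change as large as that of Lrp1 lay outside the interval of Lrp4, Lrp10 and Lrp12 alike. The antisense gene Gm10366 shares 475 exonic bases with Lrp10 and is not analysed here, so its reads cannot be told apart without a stated strand setting.

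Lrpap1 (ENSMUSG00000029103, chromosome 5) encodes the receptor-associated protein RAP, which escorts LRP1 and its relatives through the endoplasmic reticulum and keeps ligands off them. It stood at 85.3, 99.0 and 93.8 CPM in f/f and 100.4, 110 and 103 CPM in ECKO. All ECKO libraries lay above all f/f libraries, an order that 15.7% of tested genes showed. The difference was small, with a log2 fold change of 0.17 (95% interval -0.05 to 0.39, edgeR adjusted p = 0.318), and it became -0.07 under total count scaling. The chaperone's interval thus leaves no room for a fall of the size seen for Lrp1. Per length, the ratio of Lrp1 to Lrpap1 FPKM was 0.351, 0.351 and 0.360 in f/f and 0.128, 0.1003 and 0.138 in ECKO. The ratio does not depend on how libraries are scaled. Against Lrp10 the same kind of ratio was 0.0847, 0.113 and 0.108 in f/f and 0.0377, 0.0314 and 0.0402 in ECKO. Neither ratio overlapped between the genotypes, and the f/f spread was wider for Lrp10. Both rest on the contrast that chose the members and were not tested.

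**Figure D3:**
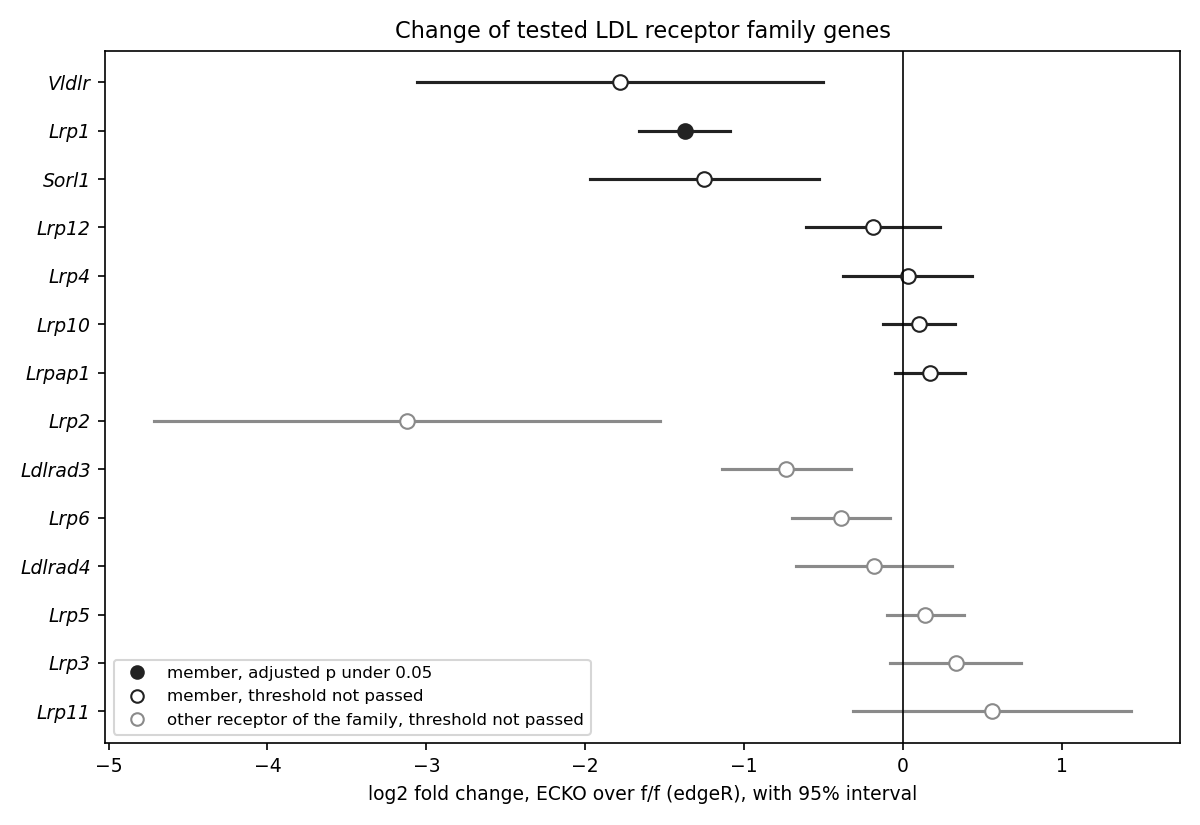
Log2 fold change of ECKO over f/f with its 95% interval for the 7 tested members (black) and 7 other receptors of the family (grey), with a filled point where the adjusted p was under 0.05. Lrp1 is the only filled point, at -1.37, and the intervals of Vldlr (-3.06 to -0.50) and Sorl1 (-1.97 to -0.53) are wider.

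Levels were compared between genes on FPKM, the deposited scale of counts per gene length and library total. Lrp10 led the family at 63.3 ± 2.25 FPKM in f/f and 58.0 ± 6.30 in ECKO (SD, n = 3 each). Lrp5, outside the set, came next at 39.0 ± 3.48 and 36.5 ± 2.63 FPKM, then Lrpap1 at 18.3 ± 3.17 and 17.4 ± 2.36 FPKM. Lrp1 held 6.49 ± 1.15 FPKM in f/f and 2.10 ± 0.261 FPKM in ECKO. In f/f its range lay above Lrp3, and in ECKO below Lrp3 and above Lrp12. Lrp12 (1.57 ± 0.299 FPKM in f/f) overlapped Ldlrad3, and Lrp4 (0.870 ± 0.190 FPKM) overlapped Lrp11. Sorl1 (0.413 ± 0.147 FPKM) and Vldlr (0.155 ± 0.0963 FPKM) also overlapped in f/f, but in ECKO Sorl1 lay above Vldlr, at 0.143 ± 0.0209 against 0.0361 ± 0.0151 FPKM. Lrp8 was lowest of the members, at 0.0304 ± 0.0215 FPKM in f/f and 0.0134 ± 0.0134 in ECKO. The FPKM of Lrp1 imply a length of 20.9 kb, longer than the 17.7 kb of all exons annotated in GENCODE M21, so levels between genes carry the authors' gene models with them.

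**Figure D4:**
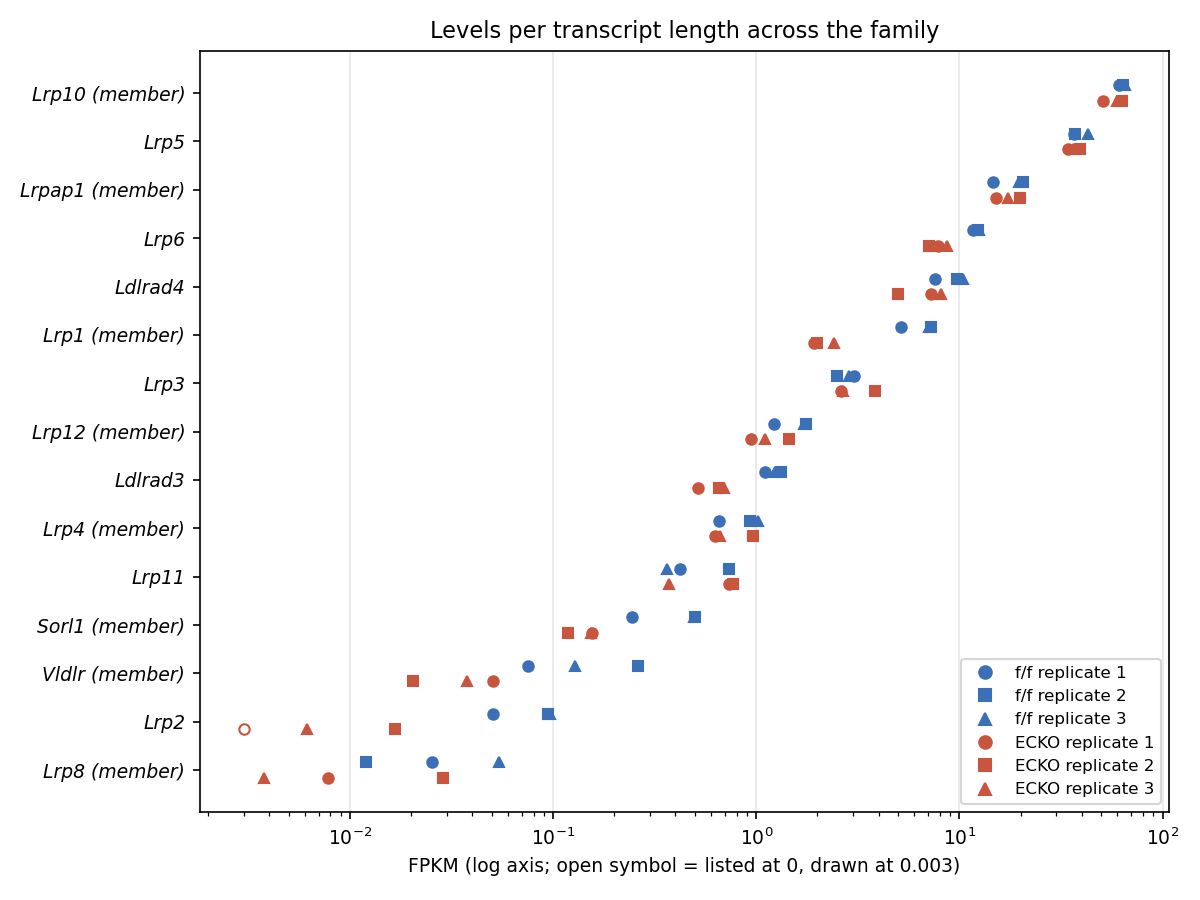
FPKM of 15 family genes in each library on a log axis, ordered by the f/f mean, with f/f in blue, ECKO in red and an open symbol for a value listed at 0. Lrp10 lies highest at 51.0 to 65.3 FPKM, and Lrp1 drops from 5.16 to 7.23 FPKM in f/f to 1.92 to 2.40 FPKM in ECKO, below Lrp3.

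Of the 11 other receptors in the family, 8 were tested and 0 passed with edgeR (median log2 fold change -0.29). At an unadjusted p under 0.05 there were 4 of them, and DESeq2 called 3, Lrp2 and Ldlrad3 among them. Of all 13692 genes tested, 3214 were at such a p and DESeq2 called 1508. Lrp2, the large kidney receptor megalin, had 22, 29 and 35 counts in f/f and 0, 5 and 2 in ECKO (edgeR adjusted p = 0.0505). Leaving out f/f replicate 1 brought Lrp2 to an edgeR adjusted p of 0.0398. All 3 ECKO libraries of Lrp2 lay below all f/f libraries, as for 15.2% of genes tested. Ldlrad3 had a log2 fold change of -0.73 (SE 0.18, edgeR adjusted p = 0.0616). Lrp6 and Lrp5, the Wnt co-receptors, had log2 fold changes of -0.39 (edgeR adjusted p = 0.137) and 0.14 (0.445). Among the sortilin relatives of Sorl1, Sort1 went from 69.4 ± 13.7 to 51.9 ± 4.03 CPM (n = 3 each, edgeR adjusted p = 0.156) and Sorcs2 from 0.881 ± 0.325 to 1.55 ± 0.703 CPM (adjusted p = 0.319).

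Of 28 tested ligands of these receptors, 6 fell, 1 rose and 21 did not pass (median log2 fold change -0.19). Over all genes tested, 2.79% were called lower and 1.24% higher. The list was chosen with earlier results of these data known, so its counts are a description. The 6 were Thbs1, Thbs2, Fn1, Mmp2, Lpl and Reln, the last being the ligand of VLDLR and the Lrp8 product. Thbs1, thrombospondin 1, fell from 48.8 ± 10.6 to 6.64 ± 2.02 CPM (n = 3 each, log2 fold change -2.87, edgeR adjusted p = 0.00853). Fn1, fibronectin, fell from 245 ± 73.4 to 44.1 ± 13.5 CPM (-2.47, adjusted p = 0.0141), and the gelatinase gene Mmp2 from 50.1 ± 23.1 to 5.499 ± 0.706 CPM (-3.19, adjusted p = 0.0153). Reln, which is also a stellate cell marker, fell from 212 ± 16.1 to 92.6 ± 29.9 CPM (n = 3 each, log2 fold change -1.19, edgeR adjusted p = 0.0414). Lpl, lipoprotein lipase, fell from 16.8 ± 7.73 to 4.56 ± 0.540 CPM (-1.88, adjusted p = 0.0419), and Thbs2 from 29.9 ± 3.96 to 15.4 ± 0.671 CPM (-0.96, adjusted p = 0.0141). Serpine2, a protease inhibitor cleared by LRP1 with its proteases, had a log2 fold change of -2.76 and did not pass (edgeR adjusted p = 0.0588). Apoe, which encodes the apolipoprotein of remnants, had a log2 fold change of -0.04 (95% interval -0.59 to 0.50, edgeR adjusted p = 0.926). Pdgfb, whose product signals through a receptor that LRP1 binds, rose by 0.86 on the log2 scale (adjusted p = 0.0141). Thbs1 passed in all 15 alternatives, whereas leaving out ECKO replicate 1 ended the call on Fn1 (0.0686). Mmp2 missed without each ECKO replicate (0.0702 to 0.0775) and under limma-voom (0.0581), and Thbs2 and Pdgfb when f/f replicate 3 or ECKO replicate 1 or 3 was left out (0.0557 to 0.0686). The rise of Pdgfb also missed the threshold under total count scaling (0.0682) and on both FPKM scales (0.0842 and 0.0874). Lpl passed only without f/f replicate 1 among the fits without 1 library (0.00197, otherwise 0.0875 to 0.133), and missed under limma-voom (0.133) and on log2(FPKM + 1) (0.0678). Reln met the threshold when f/f replicate 1 or ECKO replicate 2 was left out (0.0432 and 0.0258, otherwise 0.0870 to 0.132), and missed under limma-voom (0.0520). In the same libraries 9 of 19 stellate cell and fibroblast markers fell, and their part in these falls was not tested.

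Of 19 tested adaptors, chaperones and trafficking genes, 1 rose, 1 fell and 17 did not pass (median 0.04). At an unadjusted p under 0.05 with edgeR there were 5, and DESeq2 called 3. Of all 13692 genes tested, edgeR called 2.79% lower and 1.24% higher. An unadjusted p under 0.05 was found for 3214 of them, and DESeq2 called 1508. Mylip, also known as Idol, encodes the ubiquitin ligase that sends VLDLR and the Lrp8 product to the lysosome. It rose from 377 ± 46.5 to 640 ± 46.0 CPM (n = 3 each, log2 fold change 0.76, edgeR adjusted p = 0.0234). Leaving out ECKO replicate 1, ECKO replicate 3 or f/f replicate 3 ended that call (0.0957, 0.0735 and 0.105), as did total count scaling (0.0770) and both FPKM scales (0.122 and 0.129). Mapk8ip1, a scaffold that binds receptor tails, fell by 1.01 on the log2 scale (adjusted p = 0.0463) and passed only without f/f replicate 1 among the fits without 1 library (0.0388, otherwise 0.0921 to 0.138). It also missed under limma-voom (0.0757) and on log2(FPKM + 1) (0.0564). Mesdc2, the chaperone of LRP5 and LRP6, went from 43.3 ± 18.7 to 74.9 ± 3.66 CPM (n = 3 each, edgeR adjusted p = 0.145). Dab1, the adaptor of reelin signalling, and Numb had log2 fold changes of -1.11 (0.185) and 0.31 (0.186). The endocytic adaptors Dab2 and Snx17 had log2 fold changes of -0.32 and 0.24, and neither passed (edgeR adjusted p = 0.284 and 0.281).

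Of 11 tested shedding and intramembrane proteases 0 passed with edgeR (median -0.07), with 3 at an unadjusted p under 0.05 and 1 by DESeq2. Mmp14, a sheddase of LRP1, went from 392 ± 12.7 to 305 ± 17.5 CPM (n = 3 each, edgeR adjusted p = 0.0749). Psen2, of the gamma-secretase complex, and Bace1 had log2 fold changes of 0.55 (0.126) and -0.25 (0.198). Of 13 tested genes of sterol and lipid control 0 passed with edgeR (median -0.04), with 4 at an unadjusted p under 0.05 and 3 by DESeq2. Over all 13692 genes tested these counts were 3214 and 1508. Srebf2, which encodes a sterol-sensing inducer of cholesterol synthesis and uptake, had a log2 fold change of -0.47 (edgeR adjusted p = 0.205), and its target Hmgcs1 -0.63 (0.0977). Sqle, of cholesterol synthesis, was at -1.23 (0.0680) and Pparg, a lipid-sensing nuclear receptor, at -0.92 (0.126). Of 8 tested agrin, Wnt and reelin signalling partners Dkk3 rose by 0.88 (edgeR adjusted p = 0.0390), Src fell by 1.09 (0.0491) and 6 did not pass. At an unadjusted p under 0.05 with edgeR there were 3 of the 8, and DESeq2 called 3. The shares called by edgeR over all genes tested were 2.79% lower and 1.24% higher. Dkk3 passed without f/f replicates 1 and 2 (0.0175 and 0.0435, otherwise 0.0944 to 0.115), and Src of these fits only without f/f replicate 1 (0.0215, otherwise 0.0735 to 0.166). Total count scaling (0.120) and both FPKM scales (0.149 and 0.151) also ended the call on Dkk3, and limma-voom (0.0713) and both FPKM scales (0.0570 and 0.0664) that on Src. Pdgfrb, which LRP1 binds and which is also a stellate cell marker, was at -1.53 (edgeR adjusted p = 0.0626), Fyn at 0.14 (0.448) and Crk at 0.50 (0.577). Musk, the kinase partner of LRP4, was among 7 genes of that list left out by the filter.

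**Figure D5:**
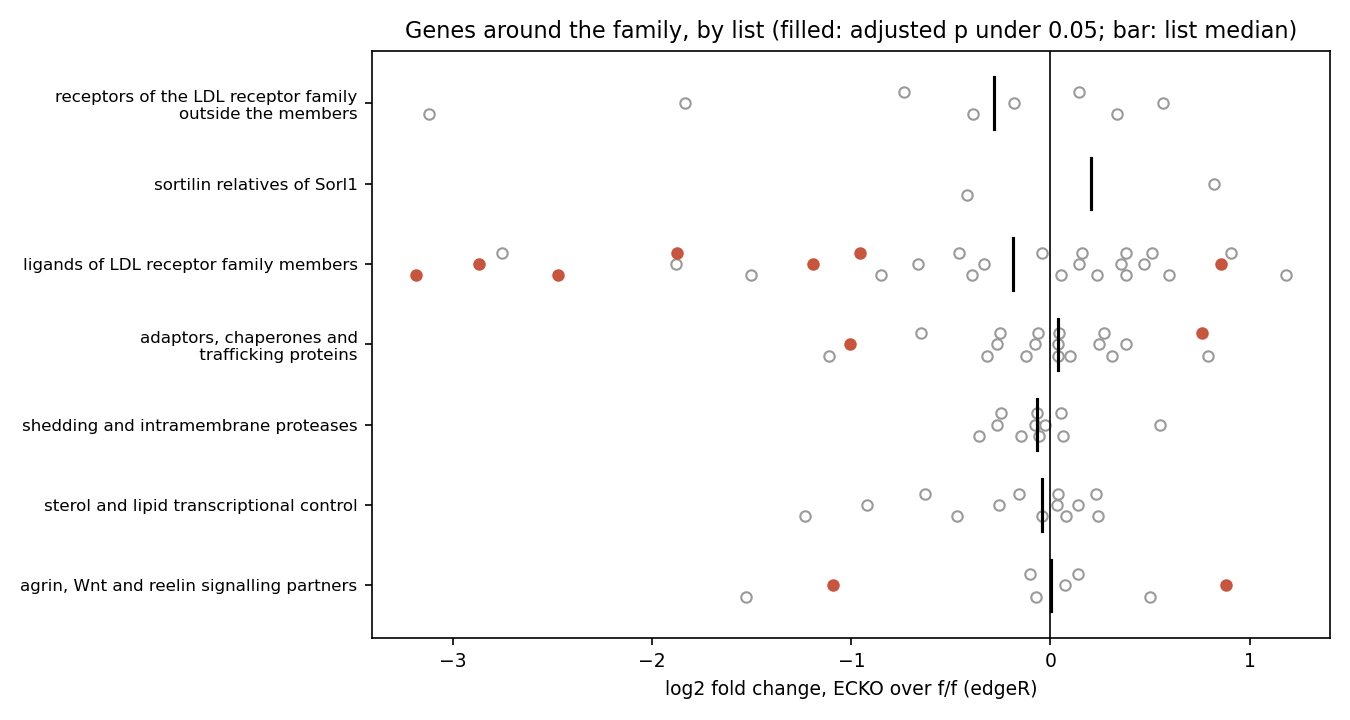
Log2 fold change of ECKO over f/f for each tested gene of the 7 lists around the family, with filled points for an adjusted p under 0.05 and a bar for the list median. The ligands, the longest list with 28 tested genes, hold 7 of the 11 filled points, 6 of them below 0. The receptors outside the set hold none. Over all genes tested, 2.79% were called lower and 1.24% higher.

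The genes whose pattern was most like that of Lrp1 were ranked by Pearson's r of log2 CPM over the 6 libraries, among 12793 genes averaging at least 1 CPM. The 5 closest were Dnajc7, Slc12a2, Nptn, Epha3 and Krt8, with r of 0.994 to 0.997. The 6 libraries fall into 2 genotypes that differ in Lrp1, so any gene with a like gap between them has a high r, which is given with no test. Likeness was not likeness of size, since Dnajc7 had a log2 fold change of -0.18 (edgeR adjusted p = 0.238) and Epha3 one of -2.16 (0.00938).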

How the data were processed

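The authors deposited 1 table with, per the file headers, raw counts and FPKM per gene and library. The submitters' processing notes name HISAT2 2.0.4 and StringTie 1.3.0, without roles, and mm10 and GRCm38.p4 as builds. The sources used here do not name the counter, gene models, filters or strand setting. The deposited FPKM equalled counts divided by gene length and library total within a relative 3.97e-06 (7566 genes over 200 counts in every library).

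Counts were filtered with filterByExpr (minimum count 10, minimum total 15), scaled by TMM and tested over all genes kept with edgeR 4.0.16 (quasi-likelihood F-test, robust, genotype only, two-sided, Benjamini-Hochberg, threshold 0.05) in R 4.3.3. SE is the absolute log2 fold change over the square root of F, and 95% intervals use the fit's degrees of freedom. A library count of 0 allows up to 3 counts, 0.124 to 0.200 CPM, covering counting error only. With 3 libraries against 3 no exact permutation p for a single value can go below 0.1. DESeq2 1.42.0 and limma 3.58.1 served as alternatives, and the test was checked on simulated data.

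The members, the 7 pathway lists, the 11 marker lists and the tests were chosen with earlier results of these data known. Named genes were all members, and in each pathway list those past the threshold plus up to 3 others with the smallest p. Also named were Tgfbr2 and the 5 genes most like Lrp1. Apoe, Dab2, Snx17, Lrp5, Lrp6, Srebf2 and Musk were named for their roles, after values were seen. The ligand Ccn2 was not analysed here, and some genes of the lists are not reported here. Exons come from GENCODE M21 (GRCm38), whose gene limits matched those of the table for 6 of the 8 members.

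Replicate numbers are shared between genotypes. Deviations from the group means had r of 0.09, 0.15 and -0.05 for same-numbered libraries and -0.15 to 0.09 for the other pairs. These values do not settle whether libraries were paired. The reported test has no pairing term, and a fit with the replicate number as a block was run as an alternative.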

Additional observations from a re-analysis of the deposited data

How the results depend on the processing

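With 3 libraries per genotype, the number of genes called depended on the setting, while Lrp1 passed in all 15 alternatives. The reported fit called 552 genes, scaling by the total count 1272, DESeq2 1508 and limma-voom 307. Leaving out 1 library gave 35 (without ECKO replicate 1) to 1012 (without f/f replicate 1) genes, with 246 and 91 without f/f replicates 2 and 3 and 193 and 109 without ECKO replicates 2 and 3. Members called were 1 in the reported fit, 3 under total count scaling and under DESeq2, and 1 to 2 when 1 library was left out. The split also moved, from 382 lower and 170 higher to 1209 and 63 under total count scaling, where the median log2 fold change of all genes was -0.22. On FPKM with limma the split was 594 and 51 (pseudocount 0.1) and 488 and 38 (pseudocount 1). With the replicate number as a block, 416 genes and 1 member were called, so the block changed no member's call. It ended the calls on Fn1 (adjusted p = 0.0551), Lpl (0.0587), Reln (0.0577) and Mapk8ip1 (0.0566). The cause of these shifts was not tested.

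Among the named genes, signs changed only for some that did not pass in the reported fit. Scaling by the total count gave log2 fold changes of -0.21 for Lrp4, -0.13 for Lrp10, -0.071 for Lrpap1, -0.098 for Fyn and -0.025 for Tgfbr2. On log2(FPKM + 0.1) it was -0.19 for Lrp4, -0.13 for Lrp10, -0.064 for Lrpap1, -0.095 for Fyn, -0.010 for Tgfbr2 and -0.0076 for Crk. On log2(FPKM + 1) it was -0.094 for Lrp4, -0.13 for Lrp10, -0.061 for Lrpap1, -0.094 for Fyn and -0.010 for Tgfbr2. Leaving out 1 library put Lrp4 at -0.11 (without ECKO replicate 2) to 0.13, with -0.053 without f/f replicate 1, and Crk at -0.34 (without ECKO replicate 1) to 0.85. For these genes the cause was not tested. Lrp8 gave no value where the filter removed it, and Vldlr none on FPKM. Among the members, Lrp8 and Vldlr rested on the fewest counts.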

Other observations

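Taken as shares of the summed FPKM of 18 receptors of the family, Lrp10 held 44.1% ± 0.881 in f/f and 48.6% ± 1.74 in ECKO (SD, n = 3 each). Lrp1 held 3.75%, 5.10% and 4.67% in f/f and 1.76%, 1.58% and 1.96% in ECKO, moving from rank 5 to rank 6. Sorl1 held 0.286% and 0.121%, and Vldlr 0.108% and 0.0310%. The summed FPKM was 137, 142 and 151 in f/f and 109, 126 and 123 in ECKO. FPKM are scaled by the library total, and on log2(FPKM + 0.1) the median log2 fold change of the 14616 genes fitted was -0.22. The lower sum is therefore not read as less receptor mRNA. These shares follow from the contrast that chose the members and were not tested.

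Markers of further cell types were read in the same libraries. Of all 13692 genes tested, 2.79% were called lower and 1.24% higher with edgeR, and 15.2% had all ECKO libraries below all f/f libraries. An unadjusted p under 0.05 was found for 3214 of the genes tested, and DESeq2 called 1508. Summed B and plasma cell markers were 21.1 to 45.4 CPM in f/f and 7.03 to 12.1 CPM in ECKO, with 4 of 7 tested genes called lower. Summed mesothelial markers were 142 to 220 CPM and 80.0 to 117 CPM, with 4 of 7 called lower (Krt8, Krt18, Wt1 and Lrrn4). Krt8 (59.3 to 72.7 CPM) and Krt18 (40.6 to 58.8 CPM) were the largest parts of that sum in f/f. Msln, Upk3b and Gpm6a overlapped between the groups and did not pass, at log2 fold changes of -1.295, -1.23 and -0.19. Monocyte and neutrophil markers summed to 71.3 to 156 CPM and 49.3 to 56.9 CPM (1 of 9 called lower, Ly6g at 0 in every library). Plac8 and Lyz2 were the largest parts of that sum in f/f, at 49.6 ± 12.4 and 39.0 ± 26.0 CPM (n = 3), and neither passed. Cholangiocyte markers summed to 221 to 615 CPM and 144 to 194 CPM (0 of 7 passed with edgeR, 6 at an unadjusted p under 0.05 and 5 by DESeq2). Spp1 made up most of that sum, at 339 ± 175 and 149 ± 23.5 CPM (n = 3 each). T and NK cell markers summed to 1.97 to 3.83 CPM and 2.44 to 4.26 CPM. Summed erythroid markers were 7.53 to 16.0 CPM and 9.40 to 14.2 CPM, but the genes differed in direction. Alas2, of heme synthesis, rose by 2.22 on the log2 scale (edgeR adjusted p = 0.0108), and the 4 tested globin genes lay below f/f in every ECKO library, at -1.89 to -1.42 (adjusted p 0.0704 to 0.166, not passed, all 4 below 0.05 unadjusted). Platelet markers summed to 92.4 to 115 CPM and 123 to 142 CPM (0 of 3 passed with edgeR, with 1 at an unadjusted p under 0.05 and 1 by DESeq2). Itgb3 made up most of that sum, at 88.8 ± 8.99 and 122 ± 8.50 CPM (n = 3 each), whereas Pf4 and Itga2b overlapped between the groups, at log2 fold changes of -0.25 and -0.41.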
